A study of Homo sapiens with 8 samples.

Results

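The lung adenocarcinoma line H1650 was set against the other 3 non-small cell lung cancer lines of the study, A549, H460 and H1975, to describe the genes by which its arrays stand apart. The members were the 2 H1650 arrays, out of 8 arrays in all, and the remaining 6 arrays came in pairs from the other lines. Per the study, H1650 and H1975 carry mutated EGFR, and A549 and H460 carry mutated K-Ras. Living cells of each untreated line were stained with the DNA dye Hoechst and sorted into a side population (SP), which pumps the dye out, and a main population (MP), which keeps it, and 1 Affymetrix HG-U133 Plus 2.0 array was run per population and line.

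No array repeats a population of a line, so the pair of H1650 arrays shows how far 2 sorted fractions of 1 line agree, and not how far lines of this kind vary. Each line is 1 tumour's descendants in culture, and EGFR genotype, patient of origin and culture history cannot be told apart here. ABCG2, the pump best known for exporting the dye, had log2 signals of 10.75 in H1650 SP and 11.45 in H1650 MP. Every comparison here uses both H1650 arrays in the same way and does not depend on which of them is the SP.

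The line was epithelial by its markers. The keratins KRT7, KRT8, KRT18 and KRT19 had log2 signals between 13.33 and 13.90 on both H1650 arrays, and the epithelial adhesion protein EPCAM had 13.26 and 13.22. Of 12 leukocyte markers, 5 were over the floor defined next on both H1650 arrays (CD14, CD53, CD79A, ITGB2 and LAPTM5), and PTPRC, at 4.24 and 3.93, was under it. Between 3 and 7 of these markers were over the floor in the other lines, and their summed linear signal was 1007 and 1023 in H1650 against 700.4 to 1233 over their line means. Of 8 endothelial markers only PECAM1 was over the floor, at 7.17 and 7.37, as in each other line. Of 11 fibroblast markers, COL1A1, COL3A1, DCN and FAP were over it and LUM, at 0.11 and 0.28, was not. COL1A1 had 9.42 and 9.48 and was brightest in H1975, with a line mean of 12.97, next to 9.54 for A549 and 9.26 for H460. The part of other cell types in the results was not tested. In bulk samples, fewer cells of a type and less RNA per cell cannot be told apart.

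Carcinoma lines keep part of the programme of their tissue. Epithelial cells are held together by cadherins, claudins and desmosomes, their surface serine proteases and protease inhibitors act in pairs, and transcription factors of the grainyhead and OVOL families hold this state while factors such as ZEB1 repress it. Stratified epithelia add a cornified envelope, built from involucrin and small proline-rich proteins, and shed cells through kallikrein proteases. EGFR is the receptor at the head of a growth pathway that is often mutated in lung adenocarcinoma.

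A gene was taken as high in H1650 when its lower H1650 signal exceeded the highest of the other 6 arrays, and as low in the opposite case. Linear signals under 64, a log2 value of 6, were set to 64 for this ranking, because dim signals of this kind have no meaningful order. Of 19775 named genes, 2321 lay above all 6 other arrays (11.7%) and 2012 lay below them (10.2%). At a distance of at least 2-fold between the nearest arrays, 473 genes lay above (2.39%) and 235 lay below (1.19%). With fewer lines to clear, these counts were 715 and 392 without A549, 577 and 380 without H460, and 886 and 568 without H1975. With all probe sets of a gene averaged, 150 genes in place of 235 lay at least 2-fold below. The margin was at least 4-fold for 182 genes above and 52 below, and at least 16-fold for 36 above and 5 below. At the 2-fold edge, ADGRB2 was just inside above at 2.002-fold and NANOS1 just outside at 1.9994-fold, while OVGP1 was just inside below at 2.0001-fold and MAN2B1 just outside at 1.9994-fold.

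**Figure D1:**
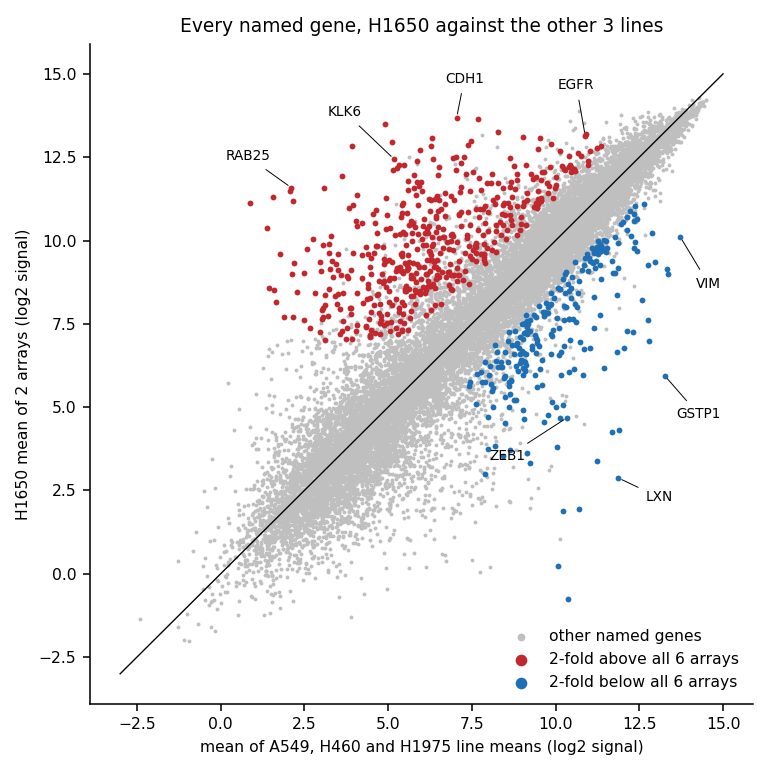
Each point is a named gene, with the mean log2 signal of the 2 H1650 arrays on the vertical axis and the mean of the A549, H460 and H1975 line means on the horizontal axis; the line marks equal signal. The 473 red genes lay at least 2-fold above all 6 other arrays and the 235 blue genes at least 2-fold below them.

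Over all 12377 genes bright enough to fit, the median absolute difference between H1650 and the mean of the other lines was 0.51 on the log2 scale, and that between the H1650 SP and MP arrays was 0.17. Over the 473 genes above, the median difference was 3.41, and over the 235 genes below it was -2.35. The rule that chose these genes fixed that they would be large. The H1650 arrays had r = 0.980 with each other across 12377 genes, and the H1650 line mean had r = 0.765 with H1975, 0.729 with A549 and 0.684 with H460. Genes are not independent replicates, so these values describe likeness only.

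Of the 473 genes above, 202 had 329 further probe sets with a log2 signal of 7 or more on at least 1 array, and 293 of these also lay above all 6 other arrays. Of the 235 genes below, 116 had 210 such probe sets, of which 135 also lay below, and 6 genes had one on the opposite side. A probe set can reach that brightness through H1650 alone in the first case and through the other lines in the second, so these counts are descriptions only. The nearest line to H1650 among the genes above was H1975 for 152, A549 for 142 and H460 for 52, and for 127 no other line mean passed the floor. Among the genes below it was H1975 for 85, A549 for 81 and H460 for 69.

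Standing apart by rank was not particular to H1650. Taking each line in turn against the rest, A549 had 349 genes at least 2-fold above and 105 below, H460 had 361 and 320, and H1975 had 452 and 238. A test with the line as the unit had little to work with, as H1650 gives 1 mean and the others give 3. limma on the 4 line means, in which the spread of H1650 is taken to be that of the other lines, called 0 of 12377 genes higher (0%) and 0 lower (0%) at a Benjamini-Hochberg adjusted p under 0.05. At an unadjusted p under 0.05 there were 327 higher and 383 lower, 710 in all, where 619 are expected by chance, and the smallest adjusted p was 0.113, for GSTP1.

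A limma fit to all 8 arrays with population as a term and the line as a random block called 4 genes higher and 7 lower, at a consensus correlation within lines of 0.870. The genes called higher were IVL, S100A14, GPNMB and CTSV. CTSV, a lysosomal cysteine protease, had log2 signals of 13.05 in H1650 SP and 13.08 in H1650 MP, against 9.35 to 9.82 in the other arrays, with a block-fit adjusted p of 0.0267. GPNMB, a transmembrane glycoprotein of the endosomal system, had 11.91 and 12.08 against 7.74 to 8.49, with a block-fit adjusted p of 0.0443. The genes called lower were GSTP1, CA12, SELENBP1, MAOA, GJA1, C1S and FKBP11. FKBP11, a prolyl isomerase of the secretory pathway, had 9.26 on both H1650 arrays against 12.35 to 13.06, with a block-fit adjusted p of 0.0267. C1S, a complement protease, had 1.48 and 2.40 against 9.10 to 11.85, with a block-fit adjusted p of 0.0336. This fit takes the 2 H1650 arrays as partly separate measures, with the same correlation for all genes, although H1650 is 1 line. Its p-values can therefore be too small for a contrast between lines. Levels and margins are descriptions throughout the text, and no gene passed the test on line means.

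The 15 genes furthest above included several known from stratified or glandular epithelium. KLK6, a secreted kallikrein protease, had log2 signals of 12.53 in SP and 12.36 in MP, while the other 6 arrays had 2.64 at the lowest, 5.69 at the median and 5.87 at the highest. All 6 were under the floor, so KLK6 was at least 82.2-fold higher in H1650. KLK5, its neighbour and a skin-type protease, had 12.65 and 12.79 against 4.93, 6.01 and 6.80, a margin of 57.6-fold. IVL encodes involucrin, a scaffold of the cornified envelope. Its signal was 12.15 and 12.22, against 5.17 to 5.38 in the other arrays, so that it was at least 71.1-fold higher. Among the 30 genes furthest out in both directions, IVL had a difference of 6.93 ± 0.78 (SE, 4 line means) with a limma adjusted p of 0.543.

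ST14 encodes matriptase, a membrane serine protease of epithelia, and had 12.33 and 12.22 against 3.25, 5.68 and 6.03, a margin of 73.1-fold. RAB25, an epithelial small GTPase of apical recycling, had 11.65 and 11.52, and no other array exceeded 3.49. It was at least 45.9-fold higher. S100A14, an epithelial calcium-binding protein, had 12.29 and 12.14 against 6.09, 6.46 and 7.11, a margin of 32.6-fold. The pattern in each of these genes was the same, with the H1650 arrays close together and the rest at or near background.

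Other leading genes came from different tissues' programmes. ITGA4, an integrin chain best known from leukocytes, had 12.17 and 11.72 against 1.30, 3.76 and 5.94, and 3 of 3 other probe sets also lay above. ZFP42, a transcription factor of pluripotent and germ cells, had 11.32 and 11.39 against 2.22, 4.04 and 5.44. ALPP, placental alkaline phosphatase, had 11.26 and 11.01, and its highest value elsewhere was 1.34. ALPP has close paralogs, and the array may not keep them apart. TNNC1, a troponin of slow and cardiac muscle, had 11.24 and 11.39 against at most 3.24. SLC2A10 (a glucose transporter), LY6D (a surface protein of squamous cells), ERP27 (a chaperone-like protein of the endoplasmic reticulum), BEX1 and ABAT (an enzyme that breaks down GABA) completed the 15, with margins between 31.3-fold and 40.7-fold.

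**Figure D2:**
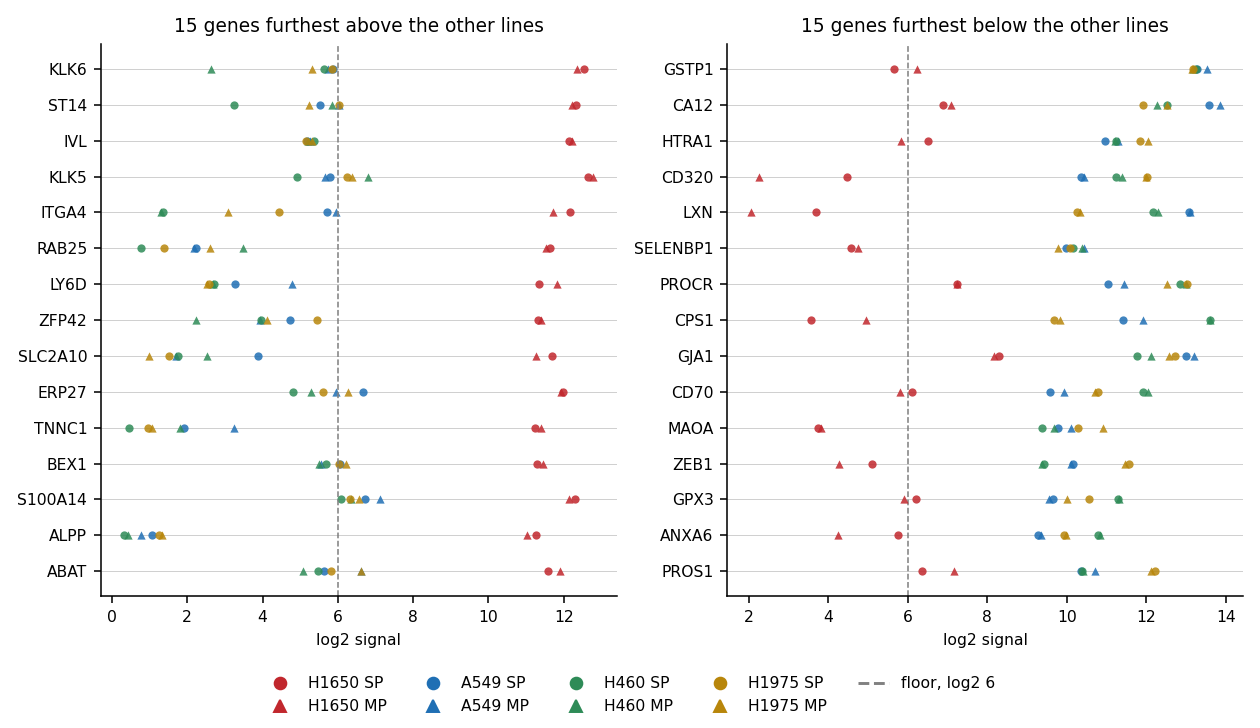
Log2 signal on each of the 8 arrays for the 15 genes furthest above the other lines (left) and the 15 furthest below (right); circles are SP and triangles MP arrays, colours are lines, and the dashed line is the floor at log2 6. The H1650 points stand apart from all 6 others in every row, and GSTP1 has the widest margin of the genes below.

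Below, the widest margin belonged to GSTP1, the glutathione transferase that conjugates electrophiles and drugs and is abundant in most lung cells. H1650 had log2 signals of 5.67 in SP and 6.22 in MP. The other 6 arrays had 13.16 at the lowest, 13.21 at the median and 13.53 at the highest, so the margin was 123-fold and the other lines hardly differed among themselves. The difference was -7.32 ± 0.33 (SE, 4 line means), with a limma adjusted p of 0.113 on line means and a block-fit adjusted p of 0.0017. No other probe set of GSTP1 reached that brightness.

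The GSTP1 promoter lies in a CpG island, a stretch rich in the dinucleotide that DNA methylation acts on, and methylation was not measured. Its sequence is shown because it belongs to the gene with the widest margin below. The 200 bases before the start site, from RefSeq on GRCh38.p14 at chr11:67583612-67583811 on the plus strand, hold 27 CG dinucleotides, given in capitals. Among 35116 RefSeq promoters the median was 11 in the 250 bases before the start, and GSTP1 had 28 in that window.

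GSTP1 promoter: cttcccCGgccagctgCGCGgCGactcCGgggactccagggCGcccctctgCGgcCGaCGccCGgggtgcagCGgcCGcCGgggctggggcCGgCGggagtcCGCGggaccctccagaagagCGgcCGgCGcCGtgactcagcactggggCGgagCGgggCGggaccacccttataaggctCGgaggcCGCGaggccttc

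CA12, a membrane carbonic anhydrase, had 6.89 and 7.10 in H1650 against 11.92, 12.52 and 13.85 in the others, a margin of 28.3-fold, and 5 of 6 further probe sets also lay below. HTRA1, a secreted serine protease, had 6.52 and 5.83 against 10.96, 11.27 and 12.04. LXN, a carboxypeptidase inhibitor, had 3.70 and 2.05, both under the floor, and at least 10.26 elsewhere, so it was at least 19.1-fold lower. For CD320, the receptor for vitamin B12 bound to transcobalamin, the values were 4.47 and 2.27 against 10.37, 11.31 and 12.02. These genes were bright in each of the other lines, whichever driver mutation those lines carry.

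The remaining genes of the 15 below included CPS1, the mitochondrial enzyme that feeds ammonia into the urea cycle, with 3.56 and 4.96 against 9.69, 11.67 and 13.61. MAOA, a monoamine oxidase, had 3.76 and 3.83 against 9.39, 9.95 and 10.92. GJA1, connexin 43 of gap junctions, had 8.30 and 8.16 against 11.78, 12.65 and 13.21, and so kept a signal well over the floor in H1650. SELENBP1, PROCR (the endothelial protein C receptor), CD70 (a ligand of the TNF family), ZEB1, GPX3 (a secreted glutathione peroxidase), ANXA6 (an annexin) and PROS1 (protein S of coagulation) had margins between 9.22-fold and 13.8-fold.

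The list of epithelial junction genes stood furthest above the rest. Of 41 measured members, 24 lay above all 6 other arrays and 1 lay below, and 16 lay at least 2-fold above and 0 at least 2-fold below. Over all named genes the share above was 11.7% and the share at least 2-fold above 2.39%. The median difference over all 41 members was 2.20 on the log2 scale, against -0.03 over 19740 genes. The list's median log2 signal was 11.07 in H1650, 8.44 in A549, 6.83 in H1975 and 5.34 in H460. Medians of lists and their differences use signals without the floor, so they rest partly on dim values, and the H460 median is itself under it. The counts of the other lists, too, are read against 11.7% above and 10.2% below, and at 2-fold against 2.39% and 1.19%. Among the 12377 genes bright enough to fit, 17.2% lay above and 16.05% below, and at 2-fold 3.82% and 1.90%. A gene could enter this set through the 2 H1650 arrays alone. All 473 genes at least 2-fold above and all 235 at least 2-fold below were in it, so the brightness rule itself raises the 2-fold shares. Lists of mostly bright genes, such as the interferon list with 38 of 40 fitted, are better read against these higher shares.

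Within it, CDH1, the E-cadherin of adherens junctions, had 13.70 and 13.67 in H1650. A549 had a line mean of 12.17, H1975 7.85 and H460 1.12, so the margin to the nearest array was 2.45-fold although the range across lines was wide. CDH3, P-cadherin, had 13.01 and 12.90 against 10.11 in H1975, 3.30 in A549 and 1.98 in H460. Among tight junction genes, CLDN7 had 12.41 and 12.53 with a highest value of 9.01 elsewhere, CLDN4 had 11.67 and 11.88 with a highest value of 9.04, and OCLN had 12.03 and 12.46 with a highest value of 10.73. The desmosomal cadherin DSG3 had 10.16 and 10.11 and did not pass the floor elsewhere. H460 was the lowest line for many of these genes, and taken in turn against the other lines it had 12 of the 41 members below all other arrays.

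Among proteases and inhibitors of the epithelial surface, PRSS8, prostasin, had 11.27 and 10.86 against 4.51, 5.44 and 6.20, and SPINT1, the Kunitz inhibitor of matriptase, had 12.01 and 11.91 against 5.46, 6.72 and 7.24. With ST14 this put a protease, its partner protease and its inhibitor each at least 25.4-fold above the other arrays. The related inhibitor SPINT2 overlapped between H1650 and the others. ESRP1, a splicing factor of epithelial cells, had 11.03 and 10.93 against at most 5.60, and MAL2, a protein of apical transport, had 13.46 and 13.52 against at most 8.81.

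The grainyhead and OVOL factors that hold the epithelial state were among the 35 measured lineage factors, of which 8 lay above, 0 below, and 6 at least 2-fold above. Without A549 these counts were 11, 3 and 9, and without H1975 they were 11, 3 and 7. A549, taken in turn against the other lines, also had 8 above, with 3 below and 4 at least 2-fold above. H460 had 4 above and 4 below, and H1975 had 4 and 6. The list's median log2 signal, taken without the floor, was 9.28 in A549, 8.67 in H1650, 7.16 in H460 and 5.98, under the floor, in H1975. GRHL2 had 10.73 and 10.81 in H1650 against 3.13, 5.28 and 5.81, at least 26.5-fold higher, and GRHL1 had 11.43 and 11.53 against at most 8.62. OVOL1 had 9.83 and 9.92 against at most 6.68, and OVOL2 had 10.00 on both arrays against at most 6.89. GATA3 and IRX3 were the other members at least 2-fold above, with margins of 4.37-fold and 2.53-fold. NKX2-1, the lung lineage factor, stayed under the floor on both H1650 arrays, at 4.38 and 4.80, and reached 5.76 at most elsewhere.

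Mesenchymal genes did not lie to one side as a list. Of 48 measured members, 8 lay above and 8 below, near the shares of fitted genes, 17.2% and 16.05%. The median difference over all 48 was 0.08. Taken in turn against the other lines, H1975 had 20 above and 5 below, H460 had 7 and 14, and A549 had 4 and 4. ZEB1, the repressor of epithelial genes, had 5.10 and 4.28 in H1650 against 9.37, 10.13 and 11.56, and was at least 10.3-fold lower, and 2 of 2 other probe sets also lay below. VIM, vimentin, had 10.70 in SP and 9.51 in MP against 13.50 to 13.87, a margin of 6.96-fold below, but its 1 other measured probe set overlapped. S100A4 had 9.39 and 8.88 against 11.83, 13.64 and 14.50. In the opposite direction, SPARC, a matrix protein, had 11.96 and 12.83 against 0.68, 6.50 and 10.00, and FAP, a surface protease of activated fibroblasts, had 8.13 and 7.83 and was under the floor on all other arrays. The related factors SNAI1 and TWIST1 overlapped. ZEB2 averaged 2.12 in H1650, but its lowest value elsewhere, 5.71, was also under the floor.

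**Figure D3:**
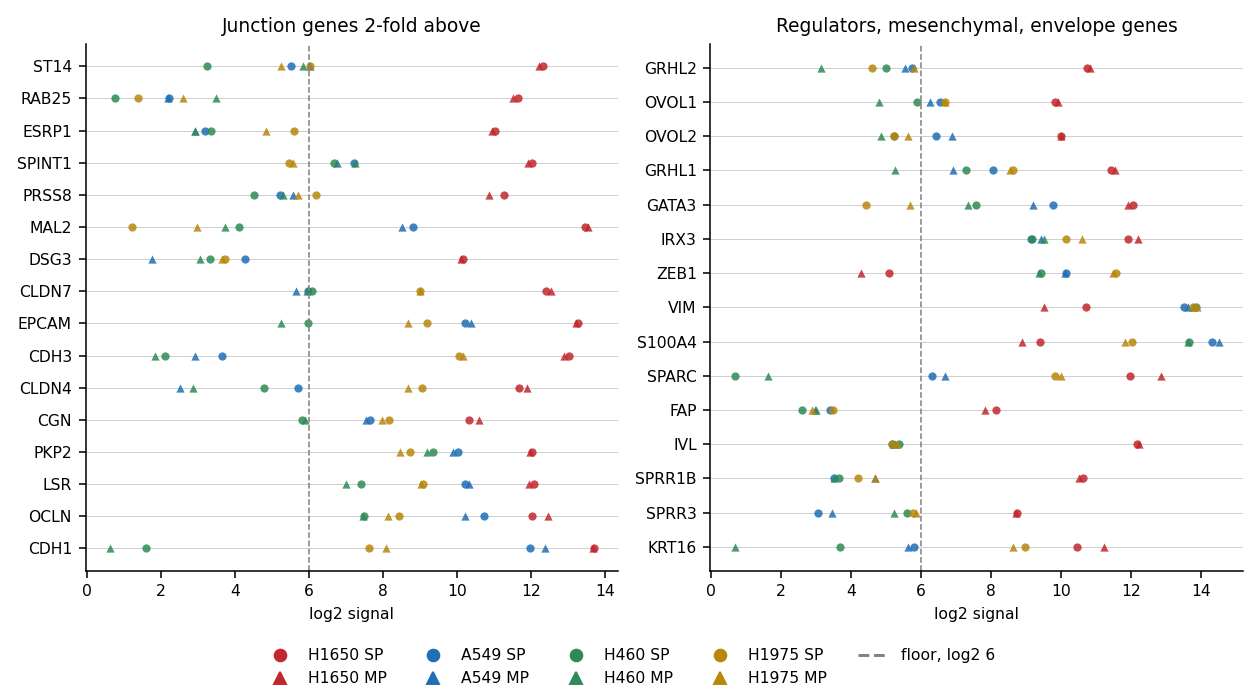
Log2 signal on each array for the 16 epithelial junction genes at least 2-fold above (left), and for transcription factors, mesenchymal genes and cornified envelope or keratin genes at least 2-fold apart (right), with circles for SP, triangles for MP and the floor dashed. The H1650 points lie to the right except for ZEB1, VIM and S100A4, which lie to the left.

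ZEB1 binds E-box sequences in promoters of epithelial genes, so the E-box CAGGTG was looked for on both strands in the 250 bases before each RefSeq start site. It was present in 17 of 46 promoters of the measured junction genes (37.0%), which covered 31 genes, against 17.5% of all 35116 promoters. A gene can have several promoters in this count. For genes at least 2-fold above in H1650 the share was 23.7% of 524 promoters, and for those at least 2-fold below 15.1% of 259. The grainyhead-type motif AACNNGTT, read on both strands, was in 1 of the 46 junction gene promoters (2.17%) and in 1053 of all 35116. A match is a string of letters and no evidence of binding.

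Promoters were available for 8 of the junction genes at least 2-fold above, and 5 of their 11 promoters held the E-box. Those of CGN, CLDN4, DSG3 and LSR did not. Among junction genes that overlapped, a promoter of CRB3, PROM1, CEACAM5, CLDN18 and DSC2 held it. Those of CEACAM1, CEACAM6, CEACAM7, CLDN2, CLDN3, CLDN10, DSC3, MAL and PERP did not. The relation of the E-box to the level in H1650 was not tested. The promoters of RAB25 and of OCLN are shown as 2 of the genes at least 2-fold above that hold the E-box. It is given in capitals in either orientation. Both are the 150 bases before a RefSeq start site on the plus strand of GRCh38.p14, at chr1:156061010-156061159 for RAB25 and chr5:69492397-69492546 for the first of the OCLN start sites.
RAB25 promoter: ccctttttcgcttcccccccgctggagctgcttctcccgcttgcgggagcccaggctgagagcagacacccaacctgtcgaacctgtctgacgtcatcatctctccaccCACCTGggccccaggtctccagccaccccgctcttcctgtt
OCLN promoter: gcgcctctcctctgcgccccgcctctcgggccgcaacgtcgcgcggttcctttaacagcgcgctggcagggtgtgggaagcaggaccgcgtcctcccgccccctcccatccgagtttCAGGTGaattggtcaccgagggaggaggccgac

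Of 18 measured keratin and cornified envelope genes, 7 lay above, 0 below and 4 at least 2-fold above. A549, taken in turn against the other lines, had 6 above, 0 below and 2 at least 2-fold above. H460 had 1 above and 3 below, and H1975 had 0 and 1. SPRR1B, a small proline-rich envelope protein, had 10.64 and 10.52 in H1650, and no other array exceeded 4.70. SPRR3 had 8.75 and 8.70 against at most 5.86, and KRT16, a keratin of stressed epidermis, had 10.44 and 11.21 against 0.70, 5.71 and 8.96. The simple keratins KRT7, KRT8, KRT18 and KRT19 overlapped between H1650 and the other lines, and the line means of the basal keratins KRT5 and KRT14 were under the floor throughout.

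Among calcium-binding S100 proteins, S100A8 had 12.47 and 12.44 against 4.40, 6.14 and 9.90, and its partner S100A9 had 13.14 and 13.01 against 3.27, 5.96 and 10.88. The 2 proteins form one complex and are typical of inflamed epithelium and myeloid cells, and of myeloid markers TYROBP had 3.87 and 1.81, under the floor, while CD14 had 7.43 and 7.52, over it. Over the list of 23 S100 and annexin genes, 6 lay above and 3 below. Taken in turn, A549 had 9 above and 0 below, H460 had 2 and 5, and H1975 had 0 and 4. ANXA9 lay at least 2-fold above, and ANXA6 and S100A4 at least 2-fold below.

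Among 48 measured serpins and secreted proteases, 12 lay above and 6 below, with 7 at least 2-fold above and 4 at least 2-fold below. Without H460, 10 lay below, and with probe sets averaged 2 lay at least 2-fold below. The other lines, taken in turn, had similar counts above. A549 had 7 above and 0 below, H460 had 9 and 7, and H1975 had 9 and 1. The kallikreins KLK5, KLK6, KLK7 and KLK8 are neighbours on chromosome 19 and lay above together. KLK8 had 9.87 and 9.79 against at most 5.81, and KLK7 had 9.75 and 9.48 against at most 6.28, whereas KLK10 and KLK11 had line means under the floor throughout. TIMP3, an inhibitor of matrix proteases, had 11.30 in SP and 9.78 in MP, a wider gap within H1650 than most of these genes, against at most 6.22. SERPINB8, SERPINB9 and PLAT, the tissue plasminogen activator, lay at least 2-fold below, with margins of 3.77-fold, 2.86-fold and at least 2.87-fold, and SERPINB1 by 2.30-fold.

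EGFR was brighter in H1650 than in any other line. Its log2 signal was 13.16 in SP and 13.11 in MP, and the other arrays had 10.17 at the lowest, 10.67 at the median and 11.68 at the highest. The margin was 2.69-fold, 5 of 5 further probe sets also lay above, and the difference was 2.25 ± 0.60 (SE, 4 line means) with a limma adjusted p of 0.853. H1975, which also carries mutated EGFR, had a line mean of 10.62, next to 10.40 in H460 and below 11.64 in A549. The part of EGFR genotype in the signal was not tested.

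The rest of the receptor family and its ligands went both ways, with 4 of 13 measured members above and 2 below. TGFA, a ligand of EGFR, had 12.27 and 12.36 against 4.51, 6.88 and 9.90, a margin of 5.18-fold. ERBB2 and ERBB3, partner receptors, lay above with smaller margins of 1.41-fold and 1.53-fold. LRIG1, which limits EGFR signalling by promoting receptor loss, had 4.23 and 5.58 against 8.46, 8.84 and 9.83, so it was at least 5.49-fold lower, and NRG1, a ligand of ERBB3, had 8.55 and 8.31 against 9.98, 10.19 and 12.02. EREG, HBEGF, BTC and EGF overlapped. Further along the pathway, the list of RAS and ERK output genes had 3 of 17 above and 1 below, with 0 at least 2-fold apart in either direction.

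Of 30 other receptor tyrosine kinases and their ligands, 9 lay above and 2 below, against 11.7% and 10.2% of all named genes. FGFR2, an epithelial fibroblast growth factor receptor, had 10.33 and 10.58 against 4.98, 5.60 and 6.37, a margin of 15.6-fold, and 3 of 3 other probe sets agreed in direction. MST1R and PDGFB lay at least 2-fold above by margins of 2.01-fold and 2.08-fold. MET, the hepatocyte growth factor receptor, was bright in every line and overlapped, at 13.16 and 13.22 in H1650 against 12.45 to 13.21. IGF1R lay below at 9.86 and 9.62 against 10.80 to 11.89.

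The measured genes next to EGFR on chromosome 7 were high in H1650 as well. EGFR, LANCL2, VOPP1, MRPS17, NIPSNAP2, PSPH, CCT6A, SUMF2 and CHCHD2 follow each other among the fitted genes in RefSeq order, and all 9 lay above the other 6 arrays, with a median difference of 1.31 on the log2 scale. LANCL2 had 10.95 and 11.15 in H1650 against 8.45, 8.71 and 9.42, a margin of 2.87-fold. VOPP1 had 13.19 on both arrays against at most 11.90, and PSPH, an enzyme of serine synthesis, had 12.08 and 12.22 against at most 10.87. At the far end CHCHD2 lay above by only 0.01 on the log2 scale. On the near side GRB10, an adaptor of receptor tyrosine kinases, lay at least 2-fold below, and COBL overlapped.

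**Figure D4:**
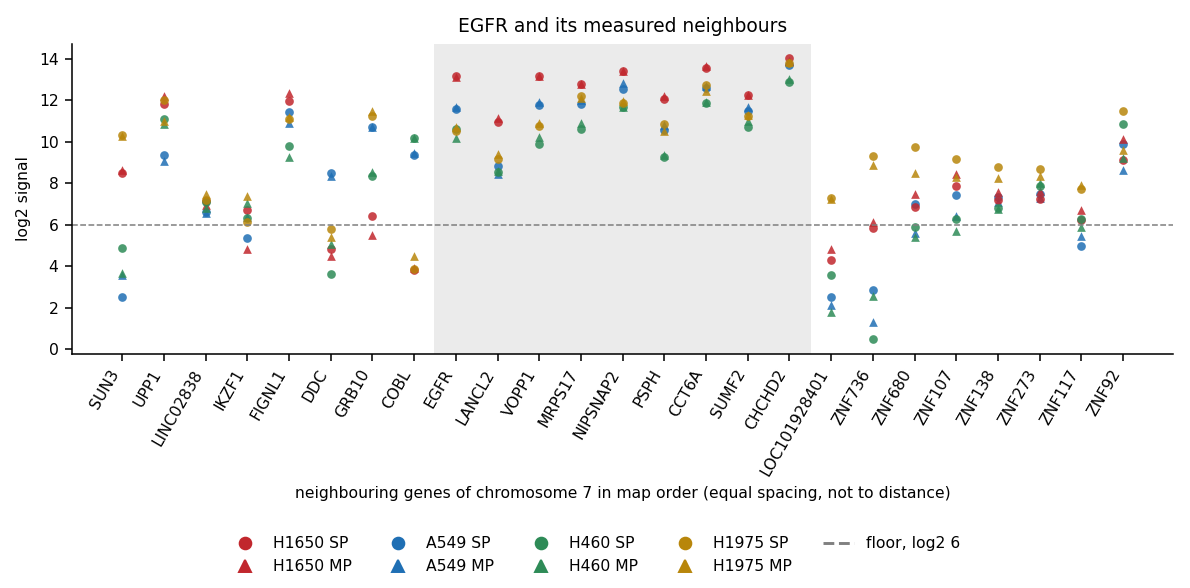
Log2 signal on each of the 8 arrays for EGFR and its fitted neighbours of chromosome 7, in map order with equal spacing; circles are SP, triangles MP, and the grey band marks the 9 genes that all lay above the other 6 arrays. The margin is widest for LANCL2 and closes at CHCHD2.

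Such runs of neighbouring genes occurred elsewhere. Counting runs of 4 or more fitted autosomal genes on one side, H1650 had 59 runs above, with 294 genes, and 28 below, with 131 genes. The other lines had between 27 and 72 runs above and between 6 and 32 below, so runs as such were not particular to H1650. The longest in H1650 held 13 genes of chromosome 16, from ZC3H7A to RRN3, with a median difference of 1.03, and 9 genes of chromosome 14, from DUXAP10 to ANG, lay below with a median of -1.22. Over whole autosomes, the share of fitted genes above was highest on chromosomes 20 (33.2% of 352) and 21 (30.8% of 120) and lowest on 13 (7.01% of 214). Over all 11950 fitted autosomal genes, 17.7% lay above and 15.3% below. The share below was highest on chromosomes 18 (28.1% of 185) and 14 (27.7% of 404). DNA copy number was not measured.

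Of 30 measured genes of antigen presentation, 8 lay above and 0 below, and the 6 that lay at least 2-fold above all belonged to the class II pathway. HLA-DRB1 had 10.10 and 10.13 against 5.70, 6.57 and 7.56, and CD74, the invariant chain that escorts class II molecules, had 9.29 and 9.40 against 7.56 at most. HLA-DRA had 8.37 and 8.16, and was under the floor in all other lines. HLA-DPA1, HLA-DQB1 and HLA-DPB1 followed with margins of 3.48-fold, 3.13-fold and at least 2.20-fold. Class II genes are close paralogs and polymorphic, so a probe set may read more than one of them. CIITA, the class II master regulator, and the class I genes HLA-B, HLA-C and B2M overlapped, while TAP2, a peptide transporter of the class I pathway, and PSMB10, a subunit of the immunoproteasome, lay above by 1.06-fold and 1.34-fold. With each gene taken as the mean of its probe sets, 3 members in place of 6 lay at least 2-fold above. Without A549, 8 members in place of 0 lay below, so A549 alone kept those members from standing apart, and without H1975 12 in place of 8 lay above. H1975, taken in turn against the other lines, had 9 above and 3 at least 2-fold above, while A549 had 1 above and H460 had 2.

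Of 40 measured interferon-response genes, 16 lay above and 1 below, and 6 lay at least 2-fold above. The share above was 11.7% of all named genes and 17.2% of fitted genes, and 3.82% of fitted genes lay at least 2-fold above. Taken in turn against the other lines, H1975 had 10 above and 4 below, H460 had 2 and 20, and A549 had 1 and 5. MX1, an antiviral GTPase, had 11.44 and 11.25 against 4.90, 7.44 and 8.02, a margin of 9.39-fold. SAMD9 had 11.11 and 10.94 against 7.29, 7.73 and 8.87, and RSAD2, viperin, had 10.91 and 10.26 against 3.79, 5.06 and 8.43. IRF7, a regulator of this response, was the exception, with 4.37 and 3.31 against 7.40, 7.99 and 9.18. The nearest line was often H1975, and without it 27 members in place of 16 lay above and 19 in place of 6 at least 2-fold above. With probe sets averaged, 4 lay at least 2-fold above. Without A549 the count was 7, and without H460 it was 6. Of 40 measured chemokines and cytokines, 2 lay above and 9 below, where 10.2% of all named genes and 16.05% of fitted genes lay below. H460, taken in turn against the other lines, had 3 above and 8 below. CXCL8, interleukin 8, had 8.18 and 9.80 against 12.88, 13.50 and 13.75, a margin of 8.43-fold below, and CXCL3 and LIF also lay at least 2-fold below.

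Genes controlled by NRF2, a transcription factor of the response to oxidative stress, had 0 of 34 above and 6 below. All named genes had 10.2% below and the brighter genes that were fitted had 16.05%. The list's median log2 signal was 13.10 in A549 and 12.88 in H460, against 10.54 in H1650 and 10.14 in H1975. AKR1C1 and AKR1C2, aldo-keto reductases that share much of their sequence, were the members at least 2-fold below, and AKR1C1 had 7.49 and 7.10 against 8.60, 13.75 and 13.93. H1975 was close to H1650 here and A549 and H460 were far from both. KEAP1, which restrains NRF2, overlapped, with 10.44 and 10.67 against 10.17 to 11.30.

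**Figure D5:**
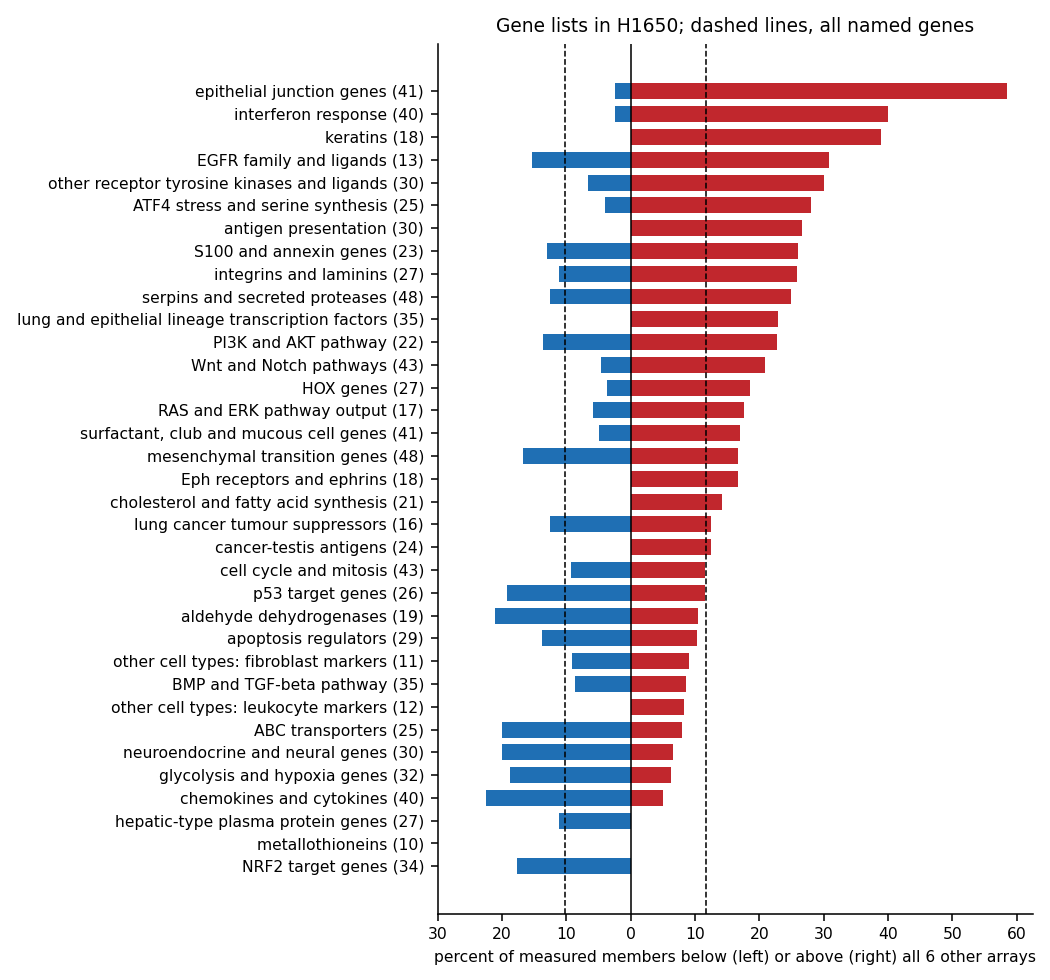
Bars give the percent of the measured members of each gene list (number in brackets) that lay above all 6 other arrays (red, right) or below them (blue, left), for lists with 10 or more measured members; dashed lines are the shares over all named genes, 11.7% and 10.2%. Epithelial junction genes reach furthest to the right, with 24 of 41, and chemokines and cytokines furthest to the left, with 9 of 40.

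Of genes often lost in lung cancer, CDKN2A, an inhibitor of the cell cycle kinases, was under the floor in H1650 at 5.96 and 5.95, against a line mean of 9.27 for H1975, 6.17 for A549 and 5.70 for H460. CDKN2B had 2.66 and 0.45 in H1650 and was bright only in H1975, with a line mean of 10.54. H1650 therefore did not stand apart from the K-Ras lines in either gene. MTAP, which lies beside them, had 10.45 and 10.50 by its brightest probe set against 7.46, 8.65 and 9.32, but 0 of 3 other probe sets lay above, and its difference turned from 2.05 to -2.05 when all its probe sets were averaged. STK11, a kinase of energy sensing, lay below by 1.05-fold only, which is small beside the spread among the other lines.

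Of the 4 cell division genes in the fixed set, TOP2A had 10.50 in SP and 11.93 in MP against 10.03 to 12.44, CDK1 had 11.10 and 12.34 against 11.20 to 13.33, and AURKB and NCAPH overlapped as well. Both H1650 arrays differed more from each other in these 4 genes than in any of the 15 genes furthest above. Of 43 measured cell cycle genes, 5 lay above and 4 below, where all named genes had 11.7% and 10.2%, and MYCL and E2F1 lay at least 2-fold above. MYCL had 9.18 and 9.09 against 6.21, 6.47 and 6.76, and E2F1 had 10.24 and 10.41 against 8.79 to 9.06.

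Smaller groups held single genes that stood out. CST6, a cysteine protease inhibitor of skin, had 12.31 and 12.19 against 2.57, 5.23 and 7.43. ALDH1A3, which makes retinoic acid, had 11.86 and 11.88 against 5.27, 8.67 and 9.10, and ALDH3B2 had 8.59 and 8.26 and was under the floor elsewhere. BMP7, a growth factor of the TGF-beta family, had 9.18 and 9.16 against at most 6.46, and WNT7A had 8.67 and 8.94 against at most 6.19. The testis-restricted genes DDX43 and SYCP2 had margins of at least 11.8-fold and 5.42-fold, and MAGEA12, one of a family of near-identical genes, had 14.03-fold. Of 25 ABC transporters, 2 lay above and 5 below, and ABCG2 overlapped. None of the 10 metallothioneins lay apart from the other 6 arrays.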

How the data were processed

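The authors hybridised RNA of 8 sorted samples to Affymetrix HG-U133 Plus 2.0 arrays and deposited signals on a log2 scale, made with MAS5 in GCOS 1.4 by the submitters' processing notes and with Expression Console by the study's text. The 2% trimmed mean of the linear signal was 500.1 on every array. The mean centring the study describes is not part of the deposited values. No detection calls were used.

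A gene was read from its probe set with the highest mean signal, out of 41097 with 1 symbol in the platform annotation; 1801 with several and 11777 with none were left out. Ranks used a floor of 64. limma 3.58.1 in R 4.3.3 compared line means over 12377 genes, with trend and Benjamini-Hochberg adjustment, and was tested on simulated data. These genes had a log2 signal of at least 7 on at least 2 arrays, whichever those were, so H1650 alone could bring a gene in. For each gene, limma draws the spread of the 3 other lines toward a trend fitted over all genes. SE and p-values therefore do not rest on that gene's own spread alone. The number of arrays limits the precision.

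The gene sets, the 36 lists and the comparison were chosen with earlier results of these data known. The text names the 15 genes furthest above and below, a fixed set of cancer genes (some not analysed here), up to 4 members of each list and members of runs of neighbours. Further list members and neighbours were named after their values were seen. Genes of the Y chromosome were left out. Alternatives were the floor, the scaling, the probe set rule, the filter, the model, and leaving out a line or an array.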

Additional observations from a re-analysis of the deposited data

How the results depend on the processing

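Of the 588 named genes, 9 of 5292 recomputed differences reversed. A reversal was counted only for genes that did not overlap between H1650 and the other arrays. Changes of sign in overlapping genes are in the 5292 but were not counted. The 5292 is no measure of robustness, because many of these differences could not reverse. Where all H1650 signals of a gene lay above, or all below, the other arrays, several settings keep that order. These are leaving out a line, using SP or MP arrays alone, and setting a floor. Averaging probe sets and quantile normalization can change the order, and all 9 reversals came from them. With all probe sets of a gene averaged, MTAP had -2.05, MTOR -0.42, TAP2 -0.26, DDX56 -0.49, SPAG16 -0.55, RPS27 0.57, ITGB1BP1 0.33 and PRRC1 0.0927, and with quantile normalization RPL39 had 0.0563. The cause was not tested.

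Averaging probe sets left 150 genes at least 2-fold below. Counting every probe set other than controls gave 5304 above, 3900 below, 947 at least 2-fold above and 416 at least 2-fold below, because more features were ranked. SP arrays alone gave 3331 below and 428 at least 2-fold below, and MP arrays alone gave 3733 above, 3098 below, 728 at least 2-fold above and 408 at least 2-fold below, since fewer arrays had to be cleared. A fold of 4 left 182 above and 52 below. Leaving out a line or an H1650 array gave 2853 to 3629 genes above, 2434 to 3225 below, 557 to 886 at least 2-fold above and 295 to 568 at least 2-fold below. The highest of each came without H1975, the lowest without an H1650 array. A floor set 2-fold lower or higher, quantile normalization and a common median kept all 4 counts within 1.5 times.

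limma on line means called 0 genes in each direction under every alternative other than 2 that use the 8 arrays one by one. Line as a random block gave 4 higher and 7 lower, and line as a fixed term, which counts only the spread within lines, gave 3298 higher and 3377 lower. Population was a term of the fits to 8 arrays, since each line has 1 SP and 1 MP array. Dim signals limit the text: 108 of the genes at least 2-fold above had all other arrays under the floor, and 45 of those below had both H1650 arrays there.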
